A study of Mus musculus with 32 samples.

Results

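The transcripts described here are those of 10 heat shock and endoplasmic reticulum (ER) chaperone genes, chosen by name as *Hspa1a*, *Hspa1b*, *Hspa8*, *Hsph1*, *Dnajb1*, *Dnajb5*, *Hsp90aa1*, *Hsp90ab1*, *Hspb1* and *Hspa5*, out of 23420 genes in the count tables. All 10 were found in the tables by symbol, and all 10 passed the filter on low counts that left 15589 genes for testing. Striatal RNA was sequenced from 8 naïve C57BL/6J (B6) mice and 8 naïve B6.D2 congenic littermates of about 50 days of age, each mouse giving 1 library from pooled left and right punches. The congenic animals belong to 1 line, Line 4a in the study, and carry a segment of chromosome 11 from DBA/2J in the heterozygous state on an otherwise B6 background. None of the 10 genes lies on chromosome 11. In RefSeq's GRCm38.p6, which is the mm10 assembly, the genes are *Hspa5* at chr2:34772090-34776529, *Dnajb5* at chr4:42949867-42959425, *Hspb1* at chr5:135887919-135889563, *Hsph1* at chr5:149616843-149636498, *Dnajb1* at chr8:83608175-83612653, *Hspa8* at chr9:40801276-40805202, *Hsp90aa1* at chr12:110691036-110696395, *Hspa1b* at chr17:34956429-34959238, *Hspa1a* at chr17:34969359-34972156 and *Hsp90ab1* at chr17:45567778-45573261. The question put to these data was whether chaperone transcripts differ between the genotypes in the undisturbed striatum, and how they vary together from mouse to mouse.

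Chaperones hold unfolded or newly made proteins until they reach their native shape. In the cytosol, HSP70 proteins bind and release such clients in an ATP cycle that J-domain partners start and nucleotide exchange factors end, and many clients are then passed to HSP90, while small heat shock proteins hold aggregating proteins without ATP. Heat shock factor 1 drives many of the cytosolic genes under protein stress through heat shock elements, whereas ER chaperones such as BiP answer to the unfolded protein response through ER stress elements. Neurons contain large amounts of the constitutive forms, and the J-domain protein that uncoats clathrin and the one on synaptic vesicles both work with HSC70 at the nerve terminal.

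Upstream sequences are shown for the members whose RefSeq promoter window (GRCm38.p6, 250 bases before to 50 after each start, 7 of the 10 genes matched) holds one of these elements before the start, because the pathways that they mark are the ones by which the genes are grouped here. A paired heat shock element was searched as GAANNTTC, which reads the same on both strands, and an ER stress element as CCAAT, 9 bases of any kind and CCACG on either strand. The last 150 bases before the start are given 5′ to 3′ on the strand of the gene, with the letters of each match in capitals, and they come from chr17:34972157-34972306 (minus strand), chr17:34959239-34959388 (minus strand), chr5:135887769-135887918 (plus strand) and chr2:34771940-34772089 (plus strand).
Hspa1a: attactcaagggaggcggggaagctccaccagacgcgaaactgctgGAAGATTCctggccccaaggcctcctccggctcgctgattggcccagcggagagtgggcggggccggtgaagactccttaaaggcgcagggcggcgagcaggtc
Hspa1b: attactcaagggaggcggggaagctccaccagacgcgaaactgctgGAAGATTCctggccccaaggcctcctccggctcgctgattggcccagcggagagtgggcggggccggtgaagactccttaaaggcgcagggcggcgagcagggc
Hspb1: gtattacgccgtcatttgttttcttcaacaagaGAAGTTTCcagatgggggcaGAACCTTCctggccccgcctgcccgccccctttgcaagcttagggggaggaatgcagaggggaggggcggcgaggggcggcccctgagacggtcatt
Hspa5: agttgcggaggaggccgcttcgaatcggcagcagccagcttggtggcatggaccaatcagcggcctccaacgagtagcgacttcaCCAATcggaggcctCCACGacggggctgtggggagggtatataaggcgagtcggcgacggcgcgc

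The paired heat shock element was present in 7.86% of all 32851 promoter windows and in those of *Hspa1a*, *Hspa1b*, *Hspb1* and *Hsph1*, and in *Hsph1* the match lies after the start and is not printed. *Hspa1a* and *Hspa1b* share 247 of the 250 bases before their starts. The ER stress element was present in 0.119% of the windows, in that of *Hspa5* among the members, and in those of 6 of the 15 genes with a window in the list of ER chaperones and folding enzymes. Those of 4 of the 6 are shown as examples, on the strand that reads CCAAT first. They lie at chr10:86705638-86705656 for *Hsp90b1*, where it is the first of 2 matches, chr12:17266491-17266509 for *Pdia6*, chr8:84847075-84847093 for *Calr* and chr15:88819520-88819538 for *Creld2*, each before the start of the gene.
Hsp90b1: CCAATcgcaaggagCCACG
Pdia6: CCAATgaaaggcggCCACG
Calr: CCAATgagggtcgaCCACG
Creld2: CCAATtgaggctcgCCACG

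Between 19032826 and 33748353 reads per B6 mouse and between 24912413 and 32085311 per congenic mouse were counted on genes. Markers of striatal projection neurons were all detected, with a summed level of 5936 to 8759 CPM (reads of a gene per 1000000 reads counted on genes) in B6 and 6473 to 7560 CPM in congenic mice. Reads outside annotated exons made up 11.3% in B6 mouse 8 and 10.2% in congenic mouse 1, against 14.5% to 15.9% in the other 14 mice, and 27.3% of the reads of congenic mouse 1 had more than 1 alignment. Each count of chaperone genes was therefore also made without both of these mice. Levels are CPM scaled by TMM, edgeR's correction for library composition.

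The chaperone genes covered a wide range of abundance in the striatum. Expressed per length, as CPM per kilobase of annotated exon over all 16 mice, *Hsp90ab1*, the constitutive cytosolic HSP90, was at the top with 423 ± 19.4 (SD, n = 16), followed by *Hspa8*, which encodes the constitutive HSP70 protein HSC70, at 360 ± 26.9. *Hsp90aa1*, the inducible HSP90, was at 236 ± 19.2. *Hspa5*, which encodes BiP, the HSP70 of the ER, was at 60.6 ± 5.72, and *Hsph1*, which encodes HSP110, a nucleotide exchange factor for HSP70, at 39.5 ± 3.94.

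The J-domain partners and the small heat shock protein were lower still. *Dnajb1*, which encodes HSP40, was at 16.4 ± 1.47 CPM per kilobase, and *Dnajb5*, a relative of HSP40, at 14.7 ± 2.02. *Hspb1*, which encodes HSP25, was at 5.02 ± 1.06. The stress-inducible HSP70 genes *Hspa1a* and *Hspa1b* were at 0.481 ± 0.101 and 0.340 ± 0.0813 CPM per kilobase. The ranges over mice of neighbours in this order overlapped for *Hsp90ab1* and *Hspa8*, for *Dnajb1* and *Dnajb5* and for *Hspa1a* and *Hspa1b*, and were apart for the other 6 neighbouring pairs.

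These levels rest on reads with a single alignment, and the genes differ in how much of their sequence allows one. Of the 50-base windows of its exons, as long as the reads, 39.0% in *Hspa1a* and 37.7% in *Hspa1b* occur once in the mm9 genome, and 1710 windows are common to these near-identical neighbours. The share was 43.8% for *Hsp90aa1*, 44.4% for *Hspb1*, 62.7% for *Hspa8* and 92.8% for *Hsp90ab1*, and at least 99.3% for *Hsph1*, *Dnajb1*, *Dnajb5* and *Hspa5*. Per kilobase of such windows the order at the top changed to *Hsp90aa1* (623 ± 50.7), *Hspa8* (587 ± 43.9) and *Hsp90ab1* (535 ± 24.5), and the order of the other 7 genes was as before. The relation of *Hspa1a* to *Hspa1b* is uncertain for the same reason, and comparisons of each gene between mice are on equal sequence.

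**Figure D1:**
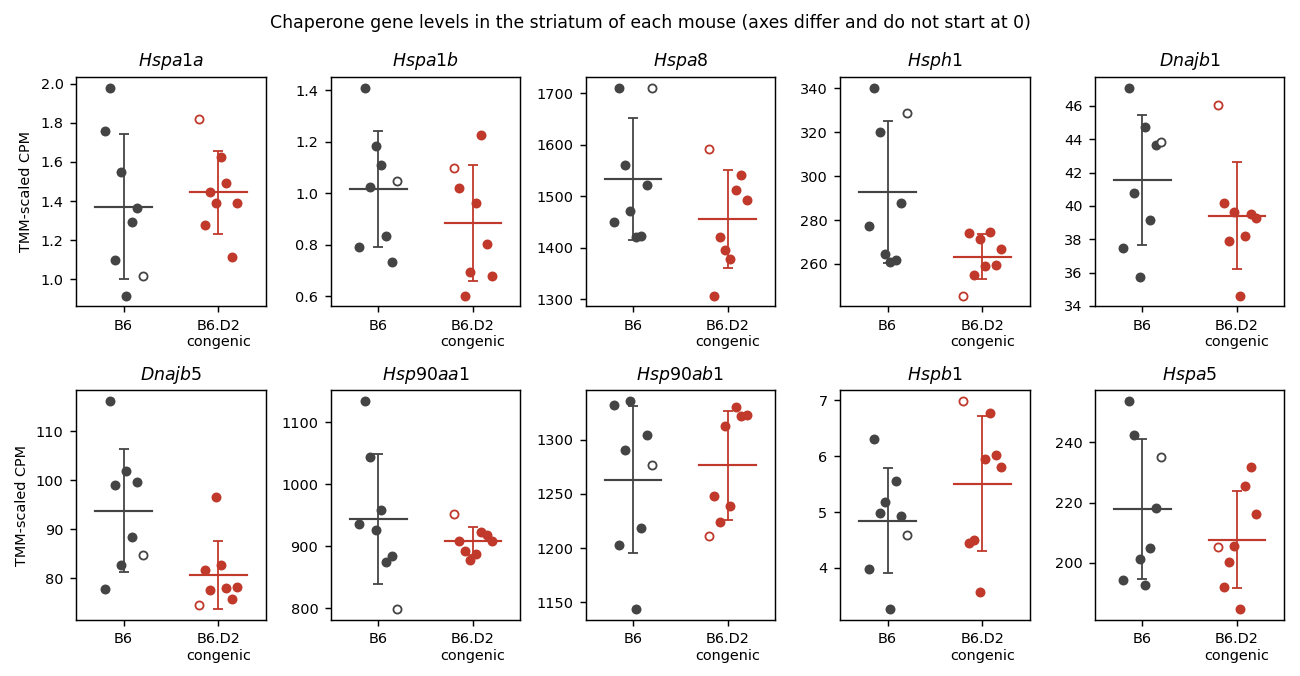
TMM-scaled CPM (y axis, own scale for each gene) of the 10 chaperone genes in 8 B6 and 8 B6.D2 congenic mice; each point is 1 mouse, the horizontal line the mean and the bar the SD, and open points are B6 mouse 8 and congenic mouse 1. The groups overlap for every gene, with the congenic points of *Hsph1* (245 to 275 CPM) all under the B6 median of 283 CPM.

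No chaperone gene differed between the genotypes at an adjusted p under 0.05, and the differences that were nearest to the threshold were lower levels of *Dnajb5* and *Hsph1* in the congenic mice. With edgeR's quasi-likelihood test, 0 of the 10 genes passed at a Benjamini-Hochberg adjusted p under 0.05, where 0.00641% of all genes tested passed, and DESeq2 and edgeR's likelihood ratio test also gave 0. At an unadjusted p under 0.05, 2 of 10 were lower in congenic mice, beside 5.14% of all genes tested, and 0 of 10 were higher, beside 4.86%. The mean was lower in congenic mice for 7 genes and higher for 3. Of all 15589 genes tested, 7029 had a lower mean and 8560 a higher one. The median log2 fold change (congenic minus B6) was -0.07 for the 10 genes and 0.01 for all genes tested. The counts at both thresholds were the same without B6 mouse 8 and congenic mouse 1.

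**Figure D2:**
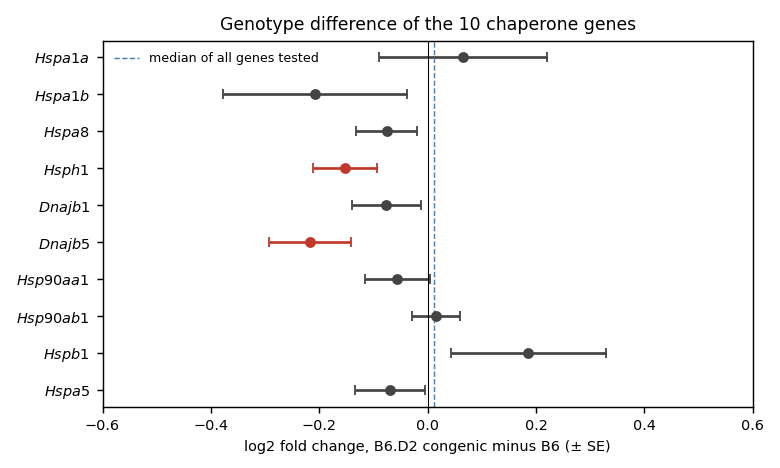
Log2 fold change (x axis, B6.D2 congenic minus B6, point) with its standard error (bar) for each chaperone gene, edgeR, n = 8 mice per genotype; red marks an unadjusted p under 0.05 and the dashed line the median of all genes tested. *Dnajb5* (-0.22) and *Hsph1* (-0.15) are the red points, and *Hspa1a*, *Hspa1b* and *Hspb1* have the widest bars.

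Among the constitutive HSP70 system, *Hspa8* ranged from 1420 to 1711 CPM in B6 mice (median 1497) and from 1307 to 1592 in congenic mice (median 1457). The groups overlapped over most of their range, and the log2 fold change was -0.08 ± 0.06 (SE). *Hsph1* ranged from 261 to 340 CPM in B6 (median 283) and from 245 to 275 in congenic mice (median 263). All 8 congenic mice were below the B6 median and 4 of them below every B6 mouse, while 5 B6 mice were above every congenic mouse. Its log2 fold change was -0.15 ± 0.06, with an unadjusted p of 0.0194 and an adjusted p of 0.437 in edgeR's quasi-likelihood test. The exact two-sided permutation test over the 12870 divisions of the 16 mice gave p = 0.0281, unadjusted for the 10 genes. The SD of *Hsph1* was 32.4 CPM in B6 and 10.3 CPM in congenic mice. That of *Hsp90aa1* was 104 and 23.2 CPM, and that of *Hspb1* went the other way, 0.933 and 1.21 CPM. Differences in spread were not tested.

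The J-domain partners had unlike ranges. *Dnajb5* ranged from 77.9 to 116 CPM in B6 (median 93.7) and from 74.6 to 96.7 in congenic mice (median 78.2). Here 7 of 8 congenic mice were below the B6 median and 3 below every B6 mouse, and congenic mouse 4 (96.7 CPM) stood among the B6 values. The log2 fold change was -0.22 ± 0.08, with an unadjusted p of 0.0095 and an adjusted p of 0.397 in edgeR's quasi-likelihood test and an exact two-sided permutation p of 0.0190. *Dnajb1* ranged from 35.8 to 47.1 CPM in B6 (median 42.2) and from 34.6 to 46.1 in congenic mice (median 39.4), and its log2 fold change of -0.08 ± 0.06 did not pass.

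For both HSP90 genes the group means lay within the spread of the mice. *Hsp90aa1* ranged from 798 to 1134 CPM in B6 (median 931) and from 878 to 951 in congenic mice (median 908), so that all 8 congenic mice fell inside the B6 range, and its log2 fold change was -0.06 ± 0.06. *Hsp90ab1* ranged from 1144 to 1336 CPM in B6 (median 1284) and from 1211 to 1330 in congenic mice (median 1281), with a log2 fold change of 0.01 ± 0.04. The log2 ratio of *Hsp90aa1* to *Hsp90ab1* was -0.43 ± 0.19 (SD) in B6 and -0.49 ± 0.07 in congenic mice, a difference with an exact two-sided permutation p of 0.397.

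The stress-inducible genes were scarce in both genotypes. *Hspa1a* ranged from 0.913 to 1.98 CPM in B6 (median 1.33) and from 1.12 to 1.82 in congenic mice (median 1.42), from 23 to 66 reads per mouse. *Hspa1b* ranged from 0.735 to 1.41 CPM in B6 (median 1.04) and from 0.602 to 1.23 in congenic mice (median 0.882), from 14 to 47 reads per mouse. Counting error alone gives a coefficient of variation of 15.5% and 18.9% for the pair at these depths. Their log2 fold changes, 0.06 ± 0.15 for *Hspa1a* and -0.21 ± 0.17 for *Hspa1b*, were not distinguishable from 0, and neither was the difference in their ratio (-0.31 on the log2 scale, exact two-sided permutation p = 0.155). *Hspb1*, the other gene printed above with a heat shock element before its start, ranged from 3.26 to 6.30 CPM in B6 (median 4.96) and from 3.57 to 6.99 in congenic mice (median 5.88), with a log2 fold change of 0.19 ± 0.14.

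*Hspa5* ranged from 193 to 254 CPM in B6 (median 212) and from 185 to 232 in congenic mice (median 205). The groups overlapped in 6 of 8 congenic mice, and the log2 fold change was -0.07 ± 0.07. Its log2 ratio to *Hspa8* was -2.82 ± 0.07 (SD) in B6 and -2.81 ± 0.08 in congenic mice, a difference of 0.01 with an exact two-sided permutation p of 0.818.

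The 16 libraries were run on lanes 5 and 6 or on lanes 7 and 8, with 8 mice each. Within lanes 5 and 6, *Hsph1* had a log2 fold change of -0.20 (unadjusted p = 0.0621, edgeR's quasi-likelihood test) and *Dnajb5* of -0.18 (p = 0.202). Within lanes 7 and 8 the values were -0.11 (p = 0.180) for *Hsph1* and -0.25 (p = 0.0022) for *Dnajb5*. The direction of both genes was the same on either pair of lanes, and the interaction of genotype with lane pair passed for no chaperone gene, the smallest adjusted p being 0.950. On lanes 7 and 8, *Hspb1* had means of 4.58 CPM in B6 and 6.14 CPM in congenic mice, and *Dnajb1* of 42.8 and 37.9 CPM. On lanes 5 and 6 the means were 5.12 and 4.88 CPM for *Hspb1*, and 40.3 and 40.9 CPM for *Dnajb1*.

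The wider pathways were compared through 8 lists of 99 further genes tested. At an unadjusted p under 0.05, 4 of the 99 were lower and 4 higher in congenic mice, beside 5.14% and 4.86% of all genes tested, and 0 passed at an adjusted p under 0.05 with edgeR. Without B6 mouse 8 and congenic mouse 1 the count of 8 became 18, and without congenic mouse 1 alone it became 16, while the share of all genes tested at that p went from 10% to 12.8% and 13.4%. The median log2 fold change over the 99 genes was -0.0032, and 51 means were lower and 48 higher, beside 7029 and 8560 of all genes tested.

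Of 16 cytosolic HSP70 and J-domain partners, 2 were lower at an unadjusted p under 0.05 and 2 higher. *Dnajc6*, which encodes auxilin, the clathrin uncoating factor, had a mean of 266 CPM in B6 and 244 in congenic mice, a log2 fold change of -0.13 ± 0.05, and all 8 congenic mice were below the B6 median. *Dnajc5*, the cysteine string protein of synaptic vesicles and the most abundant of the list, had means of 325 and 300 CPM and a log2 fold change of -0.11 ± 0.05. In the other direction, *Dnajb2* had a log2 fold change of 0.12 ± 0.05 and *Hspa12b*, an endothelial HSP70 relative, of 0.26 ± 0.12.

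Of 16 co-chaperones of HSP90 and HSP70, 1 was higher. This was *Bag3*, a nucleotide exchange factor of HSP70 that works with small heat shock proteins in selective autophagy. It ranged from 7.67 to 11.5 CPM in B6 (median 8.19) and from 8.50 to 13.4 in congenic mice (median 11.3). All 8 congenic mice were above the B6 median and 4 above every B6 mouse, with a log2 fold change of 0.33 ± 0.11 and an adjusted p of 0.391 in edgeR's quasi-likelihood test. The paired heat shock element was in the promoter windows of *Bag3* and of *Chordc1*, *Fkbp4* and *Stub1*, whose log2 fold changes were -0.02 ± 0.06, -0.0044 ± 0.04 and -0.0032 ± 0.06. *Stip1*, which joins HSP70 to HSP90 and was the most abundant of the list, had a log2 fold change of -0.03 ± 0.04.

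Small heat shock proteins had no gene at an unadjusted p under 0.05 among 7 tested of 9. All 7 means were higher in congenic mice, beside 8560 of all 15589 genes tested, with a median log2 fold change of 0.14. Their summed level was 136 to 160 CPM in B6 (median 145) and 133 to 244.5 CPM in congenic mice (median 158). The part of the highest congenic mouse in these means was not tested. Of the 7, *Hspb2*, *Hspb3* and *Hspb7* were scarce, with means of 0.42, 0.53 and 0.53 CPM over all mice. *Cryab*, the most abundant, had means of 120 ± 9.14 (SD) CPM in B6 and 134 ± 29.5 CPM in congenic mice. Its log2 fold change was 0.16 ± 0.10 (SE). Of 6 heat shock factors and their regulators 1 was higher, *Hsf5*, a factor known from the testis, at means of 0.987 and 1.31 CPM and a log2 fold change of 0.42 ± 0.14, and *Hsbp1*, the most abundant, had a log2 fold change of 0.0023 ± 0.09. None of 11 mitochondrial chaperones passed, and *Hspa9*, the mitochondrial HSP70, had a log2 fold change of -0.03 ± 0.04.

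Of 21 ER chaperones and folding enzymes 1 was lower, *Ero1lb*, an ER oxidase, at means of 19.5 and 17.9 CPM and a log2 fold change of -0.13 ± 0.06. *Canx*, which encodes calnexin and was the most abundant of the list, was at 422 and 421 CPM. None of 14 regulators of the unfolded protein response passed, and *Atf6*, the most abundant of them and a sensor of ER stress, had a log2 fold change of -0.14 ± 0.08. Of 8 subunits of the chaperonin TRiC, which folds actin and tubulin, *Cct6a* was lower with means of 68.2 and 61.2 CPM (-0.16 ± 0.06), and *Cct7*, the most abundant, had a log2 fold change of -0.07 ± 0.05.

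**Figure D3:**
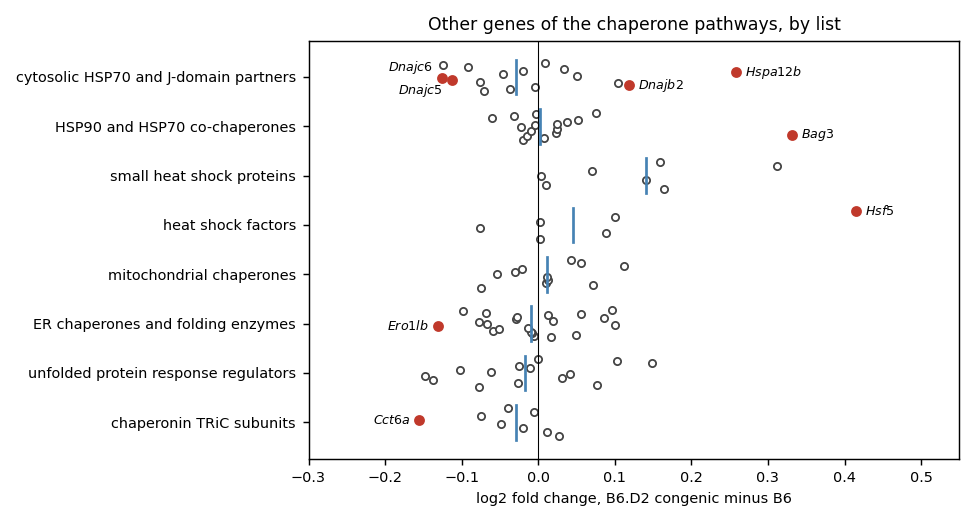
Log2 fold change (x axis, B6.D2 congenic minus B6) of each gene tested in the 8 chaperone pathway lists (rows); each point is 1 gene, red points have an unadjusted p under 0.05 in edgeR's quasi-likelihood test and the blue bar is the median of the list. The 4 red points to the left of 0 are *Dnajc6*, *Dnajc5*, *Ero1lb* and *Cct6a*, and the 4 to the right are *Dnajb2*, *Hspa12b*, *Bag3* and *Hsf5*.

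No marker of another cell type passed at an adjusted p under 0.05 with edgeR, the smallest being 0.331, but some lists had many lower or higher means. Of 8 markers of cortical glutamatergic neurons, 7 were lower in congenic mice at an unadjusted p under 0.05, with a median log2 fold change of -0.56, and their summed level was 412 to 678 CPM in B6 and 262 to 590 CPM in congenic mice, with no marker at 0. All 10 activity-regulated genes had lower means in congenic mice, beside 7029 of all 15589 genes tested. Of the 10, 1 (*Egr1*, -0.28 ± 0.13) was at an unadjusted p under 0.05. Their sum was 273 to 695 CPM in B6 and 233 to 507 CPM in congenic mice. Across the 16 mice, after centring on the genotype mean, the cortical list had an r of 0.34 with *Hsph1* and of 0.18 with *Dnajb5*. The activity-regulated list had an r of 0.38 with *Hsph1* and of 0.71 with *Dnajb5*. None of these passed by permutation of mice within genotype, the r of 0.71 having an adjusted p of 0.107. The adjustment covered 220 relations of a chaperone gene with a list mean or library measure. Of these, 37 were at an unadjusted permutation p under 0.05 and 6 passed the adjustment. Of the endothelial and mural markers 2 of 10 were higher, with a summed level of 264 to 405 CPM in B6 and 314 to 404 CPM in congenic mice. In bulk tissue, fewer cells of a type and less RNA per cell cannot be told apart, and the part of these lists in the values of *Hsph1*, *Dnajb5*, *Dnajc6*, *Dnajc5* and *Hspa12b* was not tested.

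Mice differed from each other within each genotype, and *Hspa8* and *Hspa5* varied together. With log2 CPM centred on the genotype mean, the deviation of *Hspa5* ran from -0.17 in B6 mouse 5 to 0.23 in B6 mouse 2. B6 mouse 2 had the highest deviation of 6 of the 10 genes, and B6 mouse 5 the lowest of 4. Of the 45 pairs of chaperone genes, 37 had a positive r and 8 a negative one, and the median r was 0.26. The share of positive pairs among all genes tested was not determined. The mice share a library scaling, so the values of a mouse are not independent between genes.

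*Hspa8* and *Hspa5* formed the pair with the highest r. Over 16 mice their r was 0.82, with a two-sided p of 0.00032 by permutation of mice within genotype and a Benjamini-Hochberg adjusted p of 0.0144 over the 45 pairs. Spearman's rho was 0.83 (permutation p = 0.00035, adjusted p = 0.0158). The r was 0.74 without the 2 mice farthest from the median of *Hspa8* (B6 mouse 2 and B6 mouse 8), 0.91 without B6 mouse 8 and congenic mouse 1, 0.74 within lanes 5 and 6 and 0.90 within lanes 7 and 8. Within genotypes it was 0.90 in B6 and 0.72 in congenic mice. It was the only pair that passed the adjustment, and without B6 mouse 2 its r was 0.77 with an adjusted permutation p of 0.0531.

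*Hsph1* and *Hspa5* had an r of 0.74 (permutation p = 0.0043, adjusted p = 0.0972) and a rho of 0.71 (permutation p = 0.0057, adjusted p = 0.129). The r was 0.58 without the 2 mice farthest from the median of *Hsph1*, 0.81 within lanes 5 and 6 and 0.67 within lanes 7 and 8. Within genotypes, with 8 mice each, it was 0.95 in B6 and 0.13 in congenic mice, and this difference was not tested. A further 3 pairs reached an unadjusted permutation p under 0.05, all with *Hspa8*, and these were *Hspb1* (r = 0.59, adjusted p = 0.307), *Hsph1* (r = 0.56, adjusted p = 0.340) and *Dnajb1* (r = 0.55, adjusted p = 0.340). Their rho values were 0.54 (permutation p = 0.0349), 0.53 (p = 0.0527) and 0.40 (p = 0.148), and none passed the adjustment. Without B6 mouse 2 and B6 mouse 8, the 2 farthest from the median of *Hspa8*, the r was 0.63 for *Hspb1*, 0.11 for *Hsph1* and 0.36 for *Dnajb1*. Leaving out the mice farthest in *Hspa8* narrows its range, which can lower r by itself. Without B6 mouse 8 and congenic mouse 1 the r of *Hspa8* and *Hsph1* was 0.65. Within lanes 5 and 6 and within lanes 7 and 8, the r with *Hspa8* was 0.80 and 0.19 for *Hspb1*, 0.29 and 0.89 for *Hsph1*, and 0.85 and 0.56 for *Dnajb1*. Within B6 and within congenic mice it was 0.47 and 0.72 for *Hspb1*, 0.95 and -0.50 for *Hsph1*, and 0.58 and 0.50 for *Dnajb1*. The lowest r, -0.47, was between *Dnajb1* and *Hsp90ab1*, and did not pass (adjusted permutation p = 0.428). The HSP90 genes had an r of -0.22 with each other, and *Hspa1a* and *Hspa1b* of 0.18.

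The lane pairs gave unlike patterns for many of the other pairs. The r had opposite signs within lanes 5 and 6 and within lanes 7 and 8 for 23 of the 45 pairs, and the median r was 0.45 within the former and 0.04 within the latter, with 8 mice each. *Hsp90aa1* and *Hspa5*, for instance, chosen after the values were seen, had an r of 0.89 within lanes 5 and 6 and of -0.41 within lanes 7 and 8. The share of reads counted on genes had an r of -0.92 with *Hspa8* within lanes 5 and 6 and of 0.86 within lanes 7 and 8. For *Hsph1* the values were -0.15 and 0.95, for *Hspa5* -0.59 and 0.58, and for *Hsp90aa1* -0.76 and -0.83. These genes were also chosen after the values were seen. B6 mouse 8, on lanes 7 and 8, had the highest share, 68.3%. The part of this share in the r between genes, and the difference between lane pairs, were not tested.

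**Figure D4:**
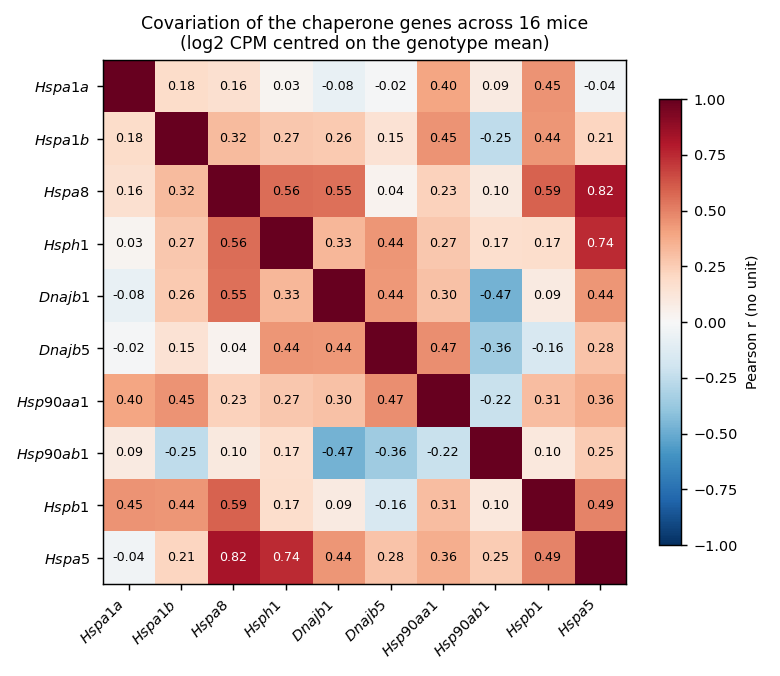
Pearson r (colour scale and printed values, no unit) between the chaperone genes in rows and columns, over 16 mice and after centring log2 CPM on the genotype mean. The highest values are those of *Hspa8* with *Hspa5* (0.82) and of *Hsph1* with *Hspa5* (0.74), and the row of *Hsp90ab1* holds the lowest (-0.47).

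The non-member genes with a mean of at least 5 CPM whose deviations were most like those of *Hspa5* included *Hsp90b1*, which encodes GRP94, the HSP90 of the ER (r = 0.86 over 16 mice), and *Pdia6*, an ER disulfide isomerase (r = 0.79). Between these came *Ddx1*, an RNA helicase (r = 0.80), and after them *G3bp2*, a stress granule protein, and *Pcdhb17*, a protocadherin (r = 0.78 each). Among the 21 genes of the ER list, 8 had an r above 0.5 with *Hspa5* (38.1%), where 2.57% of all 15579 genes tested outside the members did. Of the other genes with an ER stress element, *Calr* had an r of 0.60, *Dnajc3* of 0.60, *Creld2* of 0.39 and *Canx*, which is on chromosome 11, of 0.31. Genes of the list with a window and no such element had an r of 0.62 (*Pdia3*), 0.56 (*Pdia4*), 0.54 (*Dnajb11*), 0.52 (*Sdf2l1*), 0.34 (*Dnajb9*), 0.27 (*Dnajc10*), 0.11 (*Herpud1*), 0.01 (*P4hb*) and -0.31 (*Pdia5*), a range that overlaps that of the genes with the element. The genes of this comparison beyond *Hsp90b1* and *Pdia6* were named after their values were seen. The 8 TRiC subunits had a median r of 0.53 with *Hspa5*, above the 0.39 of the ER list. An r above 0.5 was reached by 5 of these 8 and by 5 of the 16 cytosolic HSP70 and J-domain partners (31.25%). The mean of the cytosolic list had an r of 0.84 with *Hspa5* (adjusted permutation p = 0.0128 over 220 relations). That of the ER list had 0.63 (adjusted permutation p = 0.125). Without B6 mouse 8 and congenic mouse 1 the values were 0.86 and 0.93.

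*Hspa8* had an r above 0.5 with 8 of 16 co-chaperones, 7 of 8 TRiC subunits and 13 of 21 ER genes, against 11.6% of all genes tested outside the members. *Stip1* had an r of 0.88 with *Hspa8*, below *Fbxo3*, a ubiquitin ligase subunit (0.90), and level with *Ddx1* (0.88), all named after their values were seen. The share of reads outside annotated exons had an r of -0.62 with *Hspa8*, and without B6 mouse 8 and congenic mouse 1 it was -0.37. The r of -0.62 had an adjusted permutation p of 0.0946 over the 220 relations and did not pass.

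The genes most like *Hsph1* were *Vps41*, a subunit of the HOPS complex for lysosome fusion (r = 0.92), *Syt4*, a synaptotagmin (r = 0.89), *Kcnv1*, a silent potassium channel subunit (r = 0.84), *G3bp2* (r = 0.84), also among the genes most like *Hspa5*, and *Homer1*, a postsynaptic scaffold (r = 0.83). *Hsph1* had an r of 0.78 with *Hsp90b1* and of 0.68 with *Pdia6*. These were the only 2 of the 21 ER genes above 0.5 (9.52%, beside 6.31% of all genes tested outside the members). The median r with *Hsph1* was 0.15 for the ER list and 0.43 for the 8 TRiC subunits. *Syt4*, *Kcnv1*, *G3bp2* and *Homer1* each had all 8 congenic mice below the B6 median, as *Hsph1* did, and *Vps41* had 6 of 8. The share of all genes tested with such a count was not determined. The r of *Hsph1* with the mean of the 8 oligodendrocyte markers was -0.65 and with the astrocyte markers -0.60. Over the 220 relations the adjusted permutation p was 0.0194 and 0.144, so that only the former passed. All 8 oligodendrocyte markers had a higher mean in congenic mice without passing, beside 8560 of all 15589 genes tested. Their median log2 fold change was 0.10, and their summed level 10088 to 14449 CPM in B6 and 11178 to 15709 CPM in congenic mice. The part of oligodendrocytes and astrocytes in the level of *Hsph1* was not tested.

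**Figure D5:**
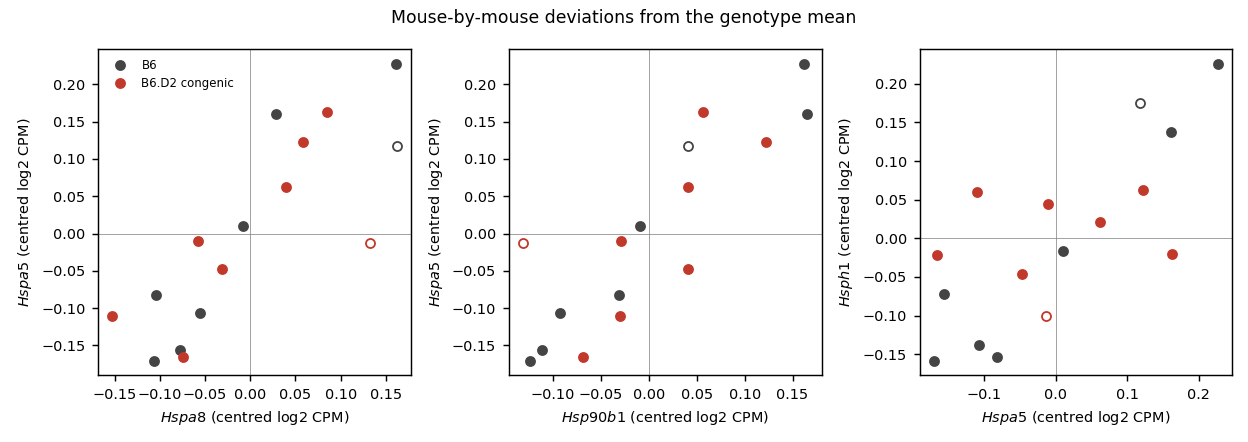
Deviation of log2 CPM from the genotype mean, 1 point per mouse (grey B6, red B6.D2 congenic, open points B6 mouse 8 and congenic mouse 1), for *Hspa5* (y) against *Hspa8* (x), *Hspa5* against *Hsp90b1* and *Hsph1* against *Hspa5*. The points follow a rising diagonal in the first panels (r = 0.82 and 0.86). In the last (r = 0.74) the B6 points do so (r = 0.95) and the congenic points do not (r = 0.13).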

How the data were processed

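Striatal poly(A) RNA from 8 B6 and 8 B6.D2 congenic mice was sequenced by the authors with a stranded kit as 50-base single-end reads on 2 lanes per library. The authors aligned the reads with TopHat (version 2.0.0 of TopHat2 and mm10 per the labels' processing notes), and the counts per gene deposited per lane were made by the authors with HTSeq 0.6.1p1 in union mode without the strand, as their deposited scripts show. Reads with more than 1 alignment or on exons of several genes are left out of these counts, which lowers near-identical genes such as *Hspa1a* and *Hspa1b*. The authors also deposited tables of their own fold changes, p-values and FDRs, which were not used. The labels and the methods differ in punch diameter, age and RNA kit, and home cage and sex are not in the labels.

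Counts were added over the lanes of a mouse (B6 mouse 7 enters with 1 lane file). Genes were filtered with filterByExpr, given TMM factors and compared by quasi-likelihood in edgeR 4.0.16 (R 4.3.3), without covariates, with Benjamini-Hochberg adjustment over 15589 genes. The study entered home cage as a covariate in its own edgeR model, so its count of genes passing comes from a different model. The blocks and covariates tried as alternatives, and DESeq2 1.42.0, are given in the closing section. The mice are separate animals of 1 line. Exact permutation tests and correlations used scipy 1.17.1 and numpy 2.4.6, with 100000 permutations within genotype and a prior count of 0.5 for log2 CPM. The scripts were tested on simulated data. Gene positions and promoters are RefSeq's (GRCm38.p6), and exon lengths GENCODE's on NCBIM37.

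All 10 members are named, with the genes of each pathway list at an unadjusted p under 0.05 (at most 3 by p) and the most abundant of each list, and the 5 genes with the highest r to *Hspa5* and to *Hsph1*; a few others are marked as named later. The members and lists were chosen with earlier results of these data known. The labels state no pairing of mice whose number recurs in both genotypes, and the main fit treats the mice as unpaired.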

Additional observations from a re-analysis of the deposited data

Results flagged for a closer look

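In 1 of the 20 sets of 8 values searched (10 genes in each genotype), a mouse lay apart from its group by Dixon's criterion, which chance meets in about 1 of 20 groups. This was *Dnajb5* in congenic mouse 4, at 96.7 CPM, where the next congenic mouse was at 82.8 CPM, a gap of 0.631 of the range of the group. No chaperone gene had a genotype difference that passed a test of interaction with the lane pair.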

How the results depend on the processing

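Over 30 alternatives per gene (scaling, filter, test, covariates, lanes, mice), no chaperone gene passed at an adjusted p under 0.05 in any of the 300 fits. *Hsph1* and *Dnajb5* kept their direction in all 30 and an unadjusted p under 0.05 in 27 and 29, with log2 fold changes from -0.20 to -0.11 and from -0.26 to -0.17. The 2 genes at an unadjusted p under 0.05 became 1 with the percent of reads on genes as a covariate and 0 on lanes 5 and 6 alone, while the share of all genes tested at that p went from 10% to 6.41% and 3.20%. Other members reached that p in a few fits, *Dnajb1* in 2 of its 30 and *Hspb1* in 1. Their log2 fold changes ran from -0.18 to 0.025 and from -0.0625 to 0.42. Direction reversed in 10 of the 300 fits. On lanes 5 and 6 alone the log2 fold change was -0.11 for *Hspa1a*, 0.025 for *Dnajb1*, -0.045 for *Hsp90ab1* and -0.0625 for *Hspb1*, and on lanes 7 and 8 alone 0.045 for *Hsp90aa1* and 0.0074 for *Hspa5*. *Hspa1a* was at -0.0203 with the percent of multi-aligned reads as a covariate, at -0.0198 with the percent on genes, and at -0.0557 without B6 mouse 8 and congenic mouse 1. Leaving out 1 mouse at a time moved *Hsp90ab1* between -0.0044 and 0.029, the negative value being without B6 mouse 5. Among the 99 pathway genes, 8 were at an unadjusted p under 0.05, and 4 to 16 with 1 mouse left out, 16 without congenic mouse 1, 5 without B6 mouse 2, B6 mouse 5 or congenic mouse 3, and 4 without B6 mouse 3. The count was 18 without both doubted mice, an alternative added after the data were seen. Over all genes tested, the share at that p was 13.4% without congenic mouse 1 and 12.8% without both. The 1 pair of genes that passed the adjustment became 2 without centring and 0 to 2 with 1 mouse left out, 0 without B6 mouse 2 and 2 without congenic mouse 2 or congenic mouse 7. The cause of these changes was not tested. On either pair of lanes alone it became 0, but there the permutations within 8 mice give a p of 0.0017 at the least, which is 0.0781 after adjustment for a lone pair, so that 1 pair could not have passed. The 5 pairs at an unadjusted permutation p under 0.05 kept a positive r in all of their 125 alternatives. These pairs were picked by their r in the same mice, and most alternatives keep most of the mice, so a kept sign says little. Each genotype alone was not among the alternatives, and there *Hspa8* and *Hsph1* had an r of -0.50 in congenic mice. Pairs with a weaker r, such as *Dnajb1* and *Hsp90ab1* (-0.79 and 0.32), changed sign between the lane pairs.

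Mice with the same number in both genotypes had correlations of their deviations from -0.12 to 0.36, and 2 of 8 numbers correlated best with their own. Such correlations cannot exclude a pairing by litter or home cage, which the labels do not give. With the replicate block, 0 chaperone genes passed at an adjusted p under 0.05 and 2 at an unadjusted p under 0.05, and *Hsph1* was at -0.15 and *Dnajb5* at -0.21. Depth limits *Hspa1a* and *Hspa1b*, with at most 66 reads in a mouse.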
